A study of Selaginella nipponica with 6 samples.

Results

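The unigenes described here had no count in any of 3 libraries of the prostrate shoots of *Selaginella nipponica* and at least 20 counts in each of 3 libraries of its erect shoots. Of the 206768 unigenes in the deposited table, 105 met this rule, and they are called erect-only unigenes below. They were selected on the counts of these same libraries, so the difference between the types of shoots that it selects is described and not tested. "Erect-only" refers to detection at this depth. *Selaginella nipponica* is a lycophyte, a member of the oldest living lineage of vascular plants, and it was collected from a single wild population without any treatment. The prostrate shoots are the early creeping shoots, labelled vegetative and harvested with their emerging roots. The erect shoots are the later upright shoots, labelled reproductive and harvested with their sporangia. Each type of shoot was represented by 3 subsamples of its harvest, and the replicate error therefore covers variation among such subsamples, which may be technical.

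In *Selaginella* the sporangia are borne on the fertile shoots and are of separate kinds that form megaspores and microspores. Spore formation involves meiosis, a nutritive cell layer called the tapetum, a wall of sporopollenin around each spore and, in the megaspores, stored oil and protein. In bulk samples of this kind, a lower count because fewer cells of a type were harvested cannot be told apart from less RNA per cell.

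Between 15679144 and 17584114 counts per library were available for the prostrate shoots and between 18001138 and 20243960 for the erect shoots. Expression is given below in counts, and in CPM, or counts per 1 M counts of the library after TMM scaling of its total. CPM is not divided by transcript length, so levels are compared between libraries and not between unigenes except as shares of counts. As 0 counts were found, the level in the prostrate shoots is bounded by 3 counts over the 3 prostrate libraries together, or 0.0635 CPM. Intervals in this text cover counting error only, and bounds cover the counting error of the prostrate libraries alone. Transcript lengths, sequences and homologies of these 105 unigenes were not used here, and no name or function is assigned to any of them.

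Erect-only unigenes were a small part of the unigenes with a reliable count in the erect shoots. At least 20 counts in each erect library were found for 17448 unigenes, and the 105 erect-only unigenes were 0.602% of them. A single prostrate count was found for another 41 of the 17448, 2 prostrate counts for 29 and 3 for 38, so the class with no prostrate count was the most populated among the lowest totals. With the types of shoots exchanged, 15528 unigenes had at least 20 counts in each prostrate library, and 3 of these, or 0.0193%, had no erect count. The erect libraries were the deeper ones. When the minimum of 20 was scaled to the smallest library total, the numbers were 87 and 3.

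**Figure D1:**
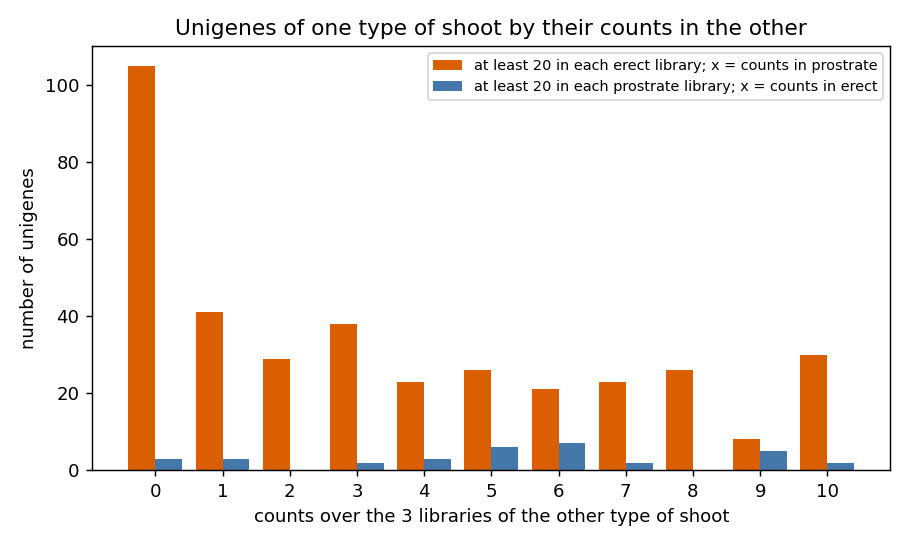
The number of unigenes (y axis) is plotted against the counts in the other type of shoot, summed over its 3 libraries (x axis, from 0 to 10). Orange bars are unigenes with at least 20 counts in each erect library and blue bars those with at least 20 in each prostrate library. At 0 counts in the other type of shoot the bars reach 105 and 3.

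The 3 unigenes of the opposite kind were rare, and they are named here after their values were seen. DN101783_c4_g1 had 22, 130 and 32 counts in prostrate replicates 1, 2 and 3. DN69763_c0_g1 had 27, 30 and 40 counts, and DN98927_c5_g2 had 82, 28 and 31. None of them reached 50 counts in each prostrate library, a level that 53 of the erect-only unigenes reached in each erect library. Leaving a library out can only keep or raise these numbers, since the rule then asks for less. Prostrate-only unigenes then numbered between 6 and 28, and erect-only unigenes between 119 and 140.

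No value had been rounded down to 0 in the prostrate libraries, as the estimated counts before rounding were exactly 0 for each of the 105 unigenes. At the lower limit of the rule, DN106422_c3_g1 had 81, 20 and 28 counts in erect replicates 1, 2 and 3, DN82796_c0_g1 had 29, 20 and 32, and DN84234_c0_g1 had 23, 20 and 27. Just outside were DN100002_c0_g4 with 60, 33 and 19 counts, DN101556_c0_g1 with 19, 27 and 30, and DN104026_c0_g2 with 19, 27 and 25. These lay on opposite sides of the limit by 1 count.

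The limit of 0 in the prostrate libraries also separated unigenes that were much alike. Among 70 unigenes with 1 or 2 prostrate counts, the most abundant was DN101829_c0_g2, with 11132, 12417 and 16164 counts in the erect replicates and 1 count in prostrate replicate 3. DN100944_c0_g2 followed with 4301, 3155 and 7217 counts and 1 count in prostrate replicate 1. DN95795_c0_g1 had 3521, 3493 and 2838 counts, DN101216_c1_g1 had 1228, 2385 and 5804, and DN96631_c0_g1 had 2004, 2590 and 2821, each with 1 count in prostrate replicate 3. The ratio of erect to prostrate counts per scaled total was 32363 for DN101829_c0_g2 (exact 95% interval from 5808 to 1278290). Each of these 5 was more abundant than most erect-only unigenes.

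Expression of the erect-only unigenes spanned a wide range. Their mean over the erect libraries was between 1.21 and 535 CPM, with a median of 3.64 CPM and quartiles of 2.06 and 10.5 CPM. Below 2 CPM there were 21 of them, 43 lay between 2 and 5 CPM, 14 between 5 and 10 CPM, 19 between 10 and 100 CPM and 8 above 100 CPM. The other 17343 unigenes with at least 20 counts in each erect library had a median of 15.3 CPM. The most abundant erect-only unigene took rank 167 among all unigenes in mean erect CPM.

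**Figure D2:**
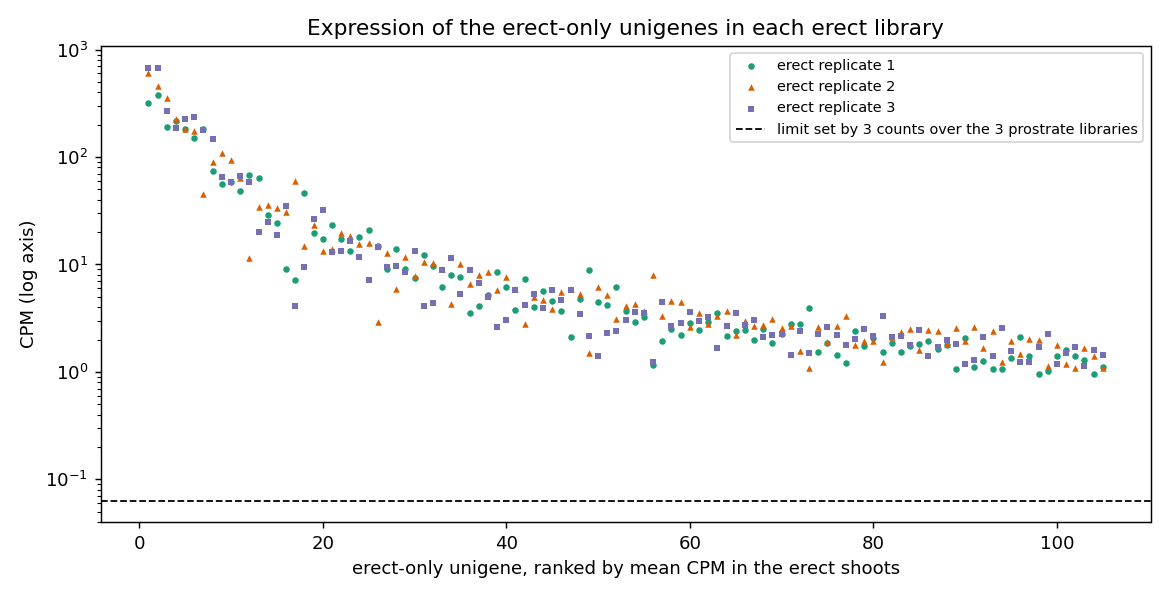
CPM in each erect library (y axis, log scale) is plotted for the 105 erect-only unigenes in order of their mean (x axis), with 1 symbol per replicate. The dashed line is the bound of 0.0635 CPM set by 3 counts over the prostrate libraries, and every symbol lies above it, as the rule requires.

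A few unigenes held most of the counts. DN101504_c1_g1, the most abundant, had 6676, 11197 and 12669 counts in erect replicates 1, 2 and 3, or 535 ± 189 CPM (SD, n = 3). DN103609_c1_g2 had 7903, 8468 and 12481 counts, or 502.0 ± 150.3 CPM. Replicate 3 was the highest and replicate 1 the lowest for both. DN101479_c0_g1 had 3998, 6560 and 4988 counts (271.1 ± 80.4 CPM), with its peak in replicate 2.

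DN102542_c1_g2, with 4544, 4193 and 3472 counts, was among the steadiest of the abundant unigenes at 210.2 ± 21.0 CPM. DN101479_c0_g2 belongs to the same Trinity component as DN101479_c0_g1 and had 3817, 3412 and 4186 counts, or 197 ± 23.7 CPM. DN102942_c0_g1 had 3151, 3262 and 4351 counts, or 187 ± 42.1 CPM. None of these 3 differed by more than 1.54-fold between its highest and its lowest erect library.

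DN102950_c0_g1 had 3816, 850 and 3334 counts, so that replicate 2 was far below the others (136 ± 78.3 CPM). DN101829_c0_g1 had 1553, 1655 and 2743 counts (103.7 ± 38.4 CPM) and is the smaller partner of the unigene with 1 prostrate count named above. DN95010_c0_g1 had 1176, 2037 and 1208 counts (77.0 ± 28.5 CPM), and DN98371_c0_g2 had 1214, 1755 and 1101 counts (70.7 ± 20.6 CPM). In both of the last named, replicate 2 was the highest and the other replicates were close to each other.

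The 105 unigenes together held 0.260, 0.315 and 0.341% of the counts of erect replicates 1, 2 and 3, with a mean of 0.305% ± 0.0410 (SD, n = 3). The 6 most abundant took 63.4% ± 5.53 (SD, n = 3) of this, and the 10 most abundant took 76.5% ± 4.58. The remaining 99 unigenes, without the 6 most abundant, held 0.110% ± 0.00148 of all counts. The difference in share between replicates 1 and 3 therefore lay in the 6 most abundant unigenes, which had 57.1% of the counts of the set in replicate 1 and 67.6% in replicate 3.

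As the prostrate libraries had no count, only a lower bound on the fold change can be given. It was computed from the mean erect CPM and the bound of 3 counts over the prostrate libraries. The mean erect CPM was taken as it stands, so counting error and spread of the erect libraries are not included. The bound was 8422-fold for DN101504_c1_g1, 7908-fold for DN103609_c1_g2 and 4270-fold for DN101479_c0_g1. At the other end the bound was 19.1-fold for DN84234_c0_g1, which had 70 counts in all. The median bound was 57.3-fold, with quartiles of 32.5 and 165-fold, and it was at least 100-fold for 35 unigenes and at least 1000-fold for 10. The bound depends on the floor, and its median was 19.02-fold with 3 counts in each prostrate library and 38.1, 39.7 and 36.8-fold without prostrate replicate 1, 2 or 3. A low bound reflects a low erect count and does not say that the change was small.

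The same counts were also fitted with edgeR over the 23275 unigenes that passed its filter on low counts. Of these, 1847 (7.94%) were higher in the erect shoots and 1236 (5.31%) higher in the prostrate shoots, with Benjamini-Hochberg adjusted p below 0.05 and more than a 2-fold difference. All 105 erect-only unigenes were tested and called, as they also were by DESeq2 and by limma-voom. Since the rule used the same contrast, this count is a description of the rule. The erect-only unigenes made up 5.68% of the unigenes called higher in the erect shoots. When a prostrate library was left out, DN99542_c5_g1 and DN100907_c0_g2 lost their calls, with adjusted p values from edgeR between 0.0519 and 0.0655, and these were the most variable of the 105 in the erect shoots.

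The rule fixed a minimum in the erect libraries but not how far they agree, so the variation between erect replicates was described separately. The coefficient of variation of CPM (SD over mean, n = 3) had a median of 0.279 in the erect-only unigenes, with quartiles of 0.199 and 0.418. It was 0.144 in the other 17343 unigenes with the same minimum, with quartiles of 0.0829 and 0.243, and 61 of the 105 lay above that upper quartile. A highest-to-lowest ratio under 2 was found for 69 of the 105 unigenes (65.7%) and for 88.8% of the others.

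The difference was not the same at all levels of expression. Between 2 and 5 CPM, where 43 erect-only unigenes lay, the median coefficient of variation was 0.224, against 0.219 in 3447 others, and the median expected from counting alone was 0.134. Between 10 and 100 CPM it was 0.340 in 19 erect-only unigenes, 0.119 in 7569 others and 0.195 in the 523 others that edgeR called higher in the erect shoots. Above 100 CPM the values were 0.298 in 8 erect-only unigenes, 0.0946 in 2430 others and 0.186 in 202 others called higher in the erect shoots. Counting alone gave medians between 0.0159 and 0.0176 in these. Below 2 CPM the medians were 0.252 in 21 erect-only unigenes, 0.207 in others and 0.197 in others called higher in the erect shoots. The erect-only median was thus above that of others at these levels and close to it between 2 and 5 CPM, where others called higher in the erect shoots had 0.248. This comparison was not tested, because unigenes are not replicates.

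**Figure D3:**
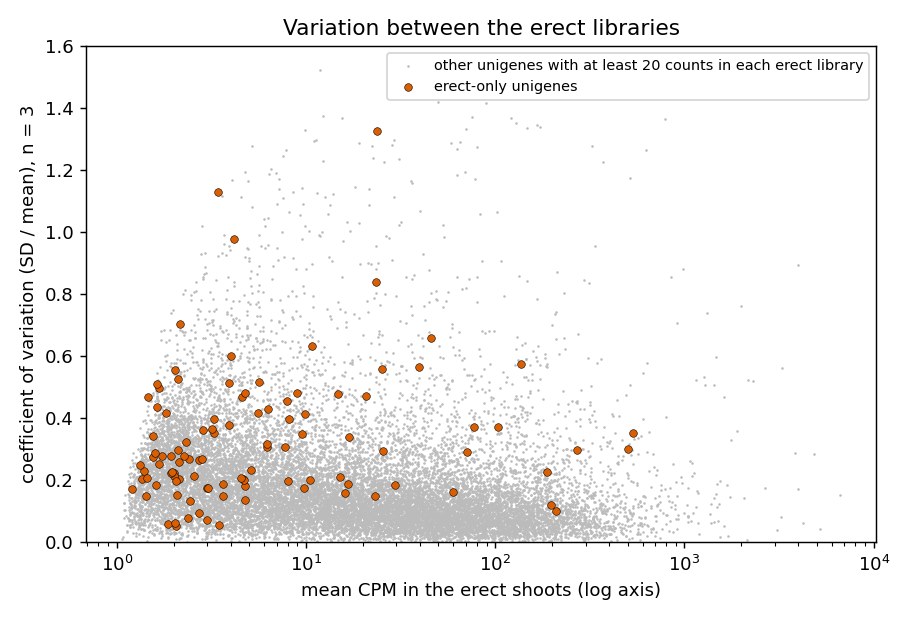
The coefficient of variation over the 3 erect libraries (y axis) is plotted against mean erect CPM (x axis, log scale) for the erect-only unigenes (orange) and the other unigenes with at least 20 counts in each erect library (grey). Orange points from 5 CPM upwards lie mostly in the upper part of the grey cloud, and the highest is DN99542_c5_g1 at 1.33.

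The lowest coefficients of variation among the erect-only unigenes were found in rare ones. DN100881_c1_g6 had 43, 36 and 40 counts in erect replicates 1, 2 and 3, a coefficient of variation of 0.0516. DN104026_c0_g1 had 68, 68 and 66 counts, DN101299_c0_g1 had 37, 34 and 37, DN102241_c0_g3 had 39, 39 and 39, and DN102145_c0_g1 had 61, 52 and 60. These 5 coefficients lay between 0.0516 and 0.0721, and the unigenes were picked as the lowest of 105. Counting alone gave medians of 0.134 between 2 and 5 CPM and 0.180 below 2 CPM. The 5 lay below these, so their values are not read as steadiness.

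The most variable erect-only unigenes stood out through 1 library each. DN99542_c5_g1 had 148, 1121 and 76 counts in erect replicates 1, 2 and 3, a coefficient of variation of 1.33, and replicate 2 was 8.47-fold above the next. DN100907_c0_g2 had 24, 147 and 23 counts, again with replicate 2 above the others, by 6.41-fold. In DN104169_c1_g3, with 185, 28 and 40 counts, DN102213_c2_g1, with 956, 277 and 176, and DN106422_c3_g1, with 81, 20 and 28, replicate 1 was the highest, by 2.59 to 4.15-fold. The rule allowed no prostrate count, and the coefficient of variation was computed over the erect libraries alone. That the spread of these 5 lay among the erect libraries therefore follows from the rule and is not a finding about them.

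A library at least 2-fold above or below both others was found for 19 of the 105 unigenes, some of which are named here after their values were seen. By library and direction, the shares were between 1.90 and 5.71% of the erect-only unigenes and between 0.259 and 1.45% of the others. The others had a higher median level (15.3 against 3.64 CPM). None of the shares given here was matched for level or tested. Erect replicate 2 was the low one in DN102950_c0_g1 (3816, 850 and 3334 counts), DN104115_c0_g1 (1419, 212 and 1082) and DN102323_c0_g3 (307, 54 and 271), by 3.91 to 5.09-fold. They were grouped by this low replicate 2, so their likeness in it follows from the grouping. They belong to different Trinity components. Such a low replicate 2 was seen in 2.86% of the erect-only unigenes and in 0.259% of the others. Replicate 3 was at least 2-fold below both others in 6 erect-only unigenes (5.71%, against 1.15% of the others). In DN101819_c0_g1 replicate 1 was low, with 189, 577 and 655 counts.

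Erect replicate 2 was the highest library for 51 of the 105 unigenes (48.6%), replicate 3 for 31 and replicate 1 for 23. In the other unigenes with the same minimum the shares were 27.3, 38.9 and 33.7% for replicates 2, 3 and 1. A frequent peak in replicate 2 was also seen among others called higher in the erect shoots, in 36.9% of those between 2 and 5 CPM and 45.1% of those between 5 and 10 CPM, where the erect-only shares were 53.5 and 57.1%. Above 100 CPM the shares were 27.2% of such others and 25.0% of the erect-only unigenes. The median log2 ratio of replicate 2 to replicate 1 was 0.25 in the erect-only unigenes and 0.03 in the others, so the median member was slightly higher in replicate 2. Among the 10 most abundant, replicate 3 was the highest for 5, replicate 2 for 4 and replicate 1 for 1. With replicate 2 left out, 125 unigenes met the rule. Whether the erect subsamples differed in the stage or number of their sporangia was not recorded in the labels and was not tested.

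**Figure D4:**
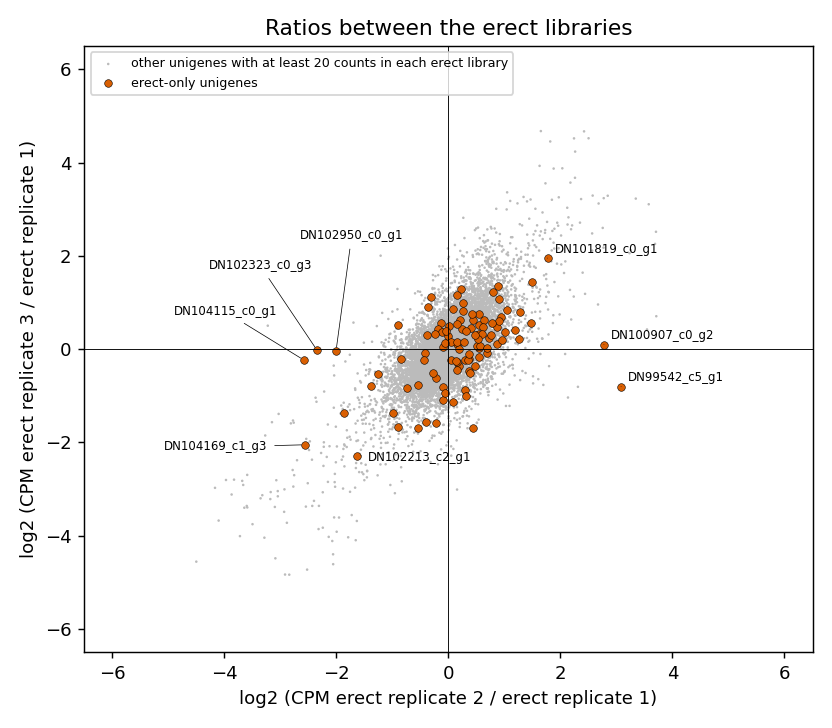
The log2 ratio of erect replicate 3 to replicate 1 (y axis) is plotted against that of replicate 2 to replicate 1 (x axis) for the erect-only unigenes (orange) and the other unigenes with at least 20 counts in each erect library (grey). DN104115_c0_g1, DN102323_c0_g3 and DN102950_c0_g1 lie together at the left near the horizontal line through 0, where replicate 2 is low and replicates 1 and 3 are close, and DN99542_c5_g1 and DN100907_c0_g2 lie apart at the right.

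A Trinity component is a group of assembled transcripts that share sequence, and its unigenes carry the same identifier up to the g number. Such unigenes can be alleles, gene copies, splice forms or pieces of a single transcript, and the counting may divide reads between them, so their counts are uncertain and not independent of each other. The 105 erect-only unigenes lay in 95 components. They were the only unigene of their component in 43 cases (41.0%, against 33.2% of the other unigenes with at least 20 counts in each erect library), and 52 of the 95 components had no prostrate count in any of their unigenes. Among these 52, the 43 single unigenes and 4 components made of erect-only unigenes alone had none by the rule. Where a component was summed before the rule was applied, 53 components met it.

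Several erect-only unigenes fell into the same component in 9 cases. DN103958_c1 consisted of 3 unigenes, and all were erect-only. Counts in erect replicates 1, 2 and 3 were 356, 365 and 249 for DN103958_c1_g2, 188, 240 and 177 for DN103958_c1_g1, and 254, 195 and 76 for DN103958_c1_g3. In CPM, replicate 3 was the lowest for DN103958_c1_g2 and DN103958_c1_g3 and replicate 1 for DN103958_c1_g1. DN101479_c0, with DN101479_c0_g1 and DN101479_c0_g2, had no other unigene, and its 26961 erect counts stood against none in the prostrate shoots.

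Of the 9 components, 4 consisted of erect-only unigenes alone, the others being DN99370_c1 and DN95398_c0 with 259 and 176 erect counts. The 5 components described in full were those with the most members, with ties broken by identifier. In the remaining 3 of them, other unigenes of the component were detected in the prostrate shoots. DN102950_c0 held DN102950_c0_g1 and DN102950_c0_g3, the latter with 127, 142 and 57 counts, and these made up 94.5% of the erect counts of the component. The low replicate 2 of DN102950_c0_g1 was not shared by DN102950_c0_g3. The last unigene, DN102950_c0_g2, had 263, 171 and 96 counts in the prostrate and 109, 137 and 238 in the erect replicates, with overlapping ranges (edgeR log2 fold change -0.42 ± 0.464 SE, adjusted p = 0.604). DN105287_c0_g1 (88, 97 and 43 counts) and DN105287_c0_g3 (201, 190 and 82) had the same order of replicates in CPM, with replicate 2 the highest and replicate 3 the lowest. Their companion DN105287_c0_g2 had 146, 140 and 55 counts and a single prostrate count. Another companion, DN105287_c0_g4, had 8, 10 and 6 counts in the erect replicates and 2 prostrate counts in all.

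DN102241_c0 was the most mixed of these. DN102241_c0_g2 (488, 260 and 245 counts) and DN102241_c0_g3 were erect-only and took 11.9% of the erect counts of the component. DN102241_c0_g1 had 208, 227 and 252 counts in the prostrate and 694, 914 and 920 in the erect replicates, and was higher in the erect shoots (edgeR log2 fold change 1.59 ± 0.220 SE, adjusted p = 0.00347). DN102241_c0_g4 had 2373, 1203 and 2532 counts in the prostrate and 2229, 2246 and 1221 in the erect replicates, with overlap between the types of shoots (edgeR log2 fold change -0.38 ± 0.310 SE, adjusted p = 0.472).

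In all, 90 further unigenes, in 48 components, lay beside the erect-only unigenes. Their own counts entered the choice in 1 respect, since unigenes that met the rule were taken out, and reads may have been divided between them and the erect-only unigenes. Of the 90, 58 passed the filter of the edgeR fit on low counts. Higher expression in the erect shoots was called for 25 of these 58 (43.1%, or 27.8% of the 90). Higher expression in the prostrate shoots was called for 1 of the 58 (1.72%). Of all tested unigenes, 7.94 and 5.31% were called. The remaining 32 tested unigenes did not pass both thresholds. Of the 25, 18 had at most 3 prostrate counts and passed the filter through their erect counts alone, so the number called is not read against the background. With a mean count of at least 50 as the filter, 14 were called higher in the erect shoots.

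**Figure D5:**
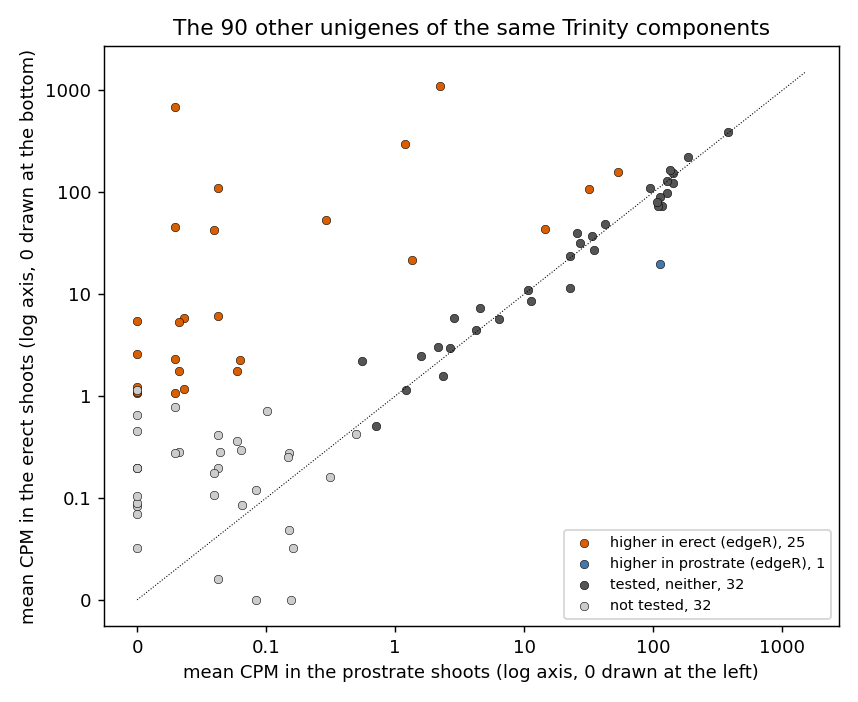
Mean CPM in the erect shoots (y axis) is plotted against mean CPM in the prostrate shoots (x axis) for the 90 other unigenes of the components that hold an erect-only unigene, on log scales with 0 drawn at the left and at the bottom. Points fall into a column at the left, with little or no prostrate expression, and a band along the dotted line of equal expression, and colours give the call of edgeR.

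These companions were of separate kinds. Among the 18 called higher in the erect shoots with at most 3 prostrate counts, 5 had none. Those at 0 did not reach 20 in each erect library, or they would have met the rule. The largest was DN104169_c1_g1, with 286, 15 and 31 counts in the erect replicates. The most abundant companion with few prostrate counts was DN101829_c0_g2, described above. DN104115_c0_g3 had 2737, 262 and 3474 counts in the erect replicates and 2 prostrate counts (ratio of counts per scaled total 2637, exact 95% interval from 730 to 21783, adjusted p = 0.00208 from edgeR). Like its erect-only partner DN104115_c0_g1, it was low in replicate 2. DN104035_c0_g2 had 960, 722 and 948 erect counts against 1 prostrate count, and DN98371_c0_g1 had 919, 857 and 678 against 2.

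Some companions were far more abundant than the erect-only unigene. DN102542_c1_g1 had 17308, 25854 and 20135 counts in the erect replicates and 19, 41 and 44 in the prostrate replicates (edgeR log2 fold change 8.96 ± 0.451 SE, adjusted p = 4.68e-05). DN102542_c1_g2, with no prostrate count, contributed 16.2% of the erect counts of that component. In DN104169_c1 the erect-only DN104169_c1_g3 contributed 1.16%. Most of that component was DN104169_c1_g5, with 0, 29 and 27 counts in the prostrate and 12150, 3088 and 2542 in the erect replicates. Replicate 1 was the highest erect library in DN104169_c1_g3 and in DN104169_c1_g5, as it was in DN104169_c1_g1.

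Other companions were well detected in both types of shoots. At least 1000 prostrate counts were found for 22 companions in 21 components. Of these, 19 did not pass both thresholds, 2 were higher in the erect shoots and 1 was lower. Their median log2 fold change was 0.06. DN97417_c2_g2 was the most abundant in the prostrate shoots, with 7521, 6851 and 3237 counts there and 6936, 8381 and 7382 in the erect replicates (edgeR log2 fold change 0.05 ± 0.344 SE, adjusted p = 0.941). Its component also held the erect-only DN97417_c2_g3 (20, 37 and 32 counts) and DN97417_c2_g5 (43, 36 and 22), which together took 0.829% of the erect counts of the component and none of its 17614 prostrate counts.

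DN96813_c0_g2 had 2040, 2199 and 4757 counts in the prostrate and 4278, 4618 and 3926 in the erect replicates, so the types of shoots overlapped (edgeR log2 fold change 0.24 ± 0.301 SE, adjusted p = 0.650). The erect-only DN96813_c0_g1 took 3.48% of the erect counts of that component. DN102467_c0_g2 had 2219, 2106 and 2039 counts in the prostrate and 3115, 3454 and 2874 in the erect replicates (edgeR log2 fold change 0.27 ± 0.174 SE, adjusted p = 0.352), and the erect-only DN102467_c0_g1 took 1.54%. DN104950_c0_g1 had 1992, 2323 and 2339 counts in the prostrate and 2598, 2208 and 2381 in the erect replicates (edgeR log2 fold change -0.19 ± 0.166 SE, adjusted p = 0.503), and the erect-only DN104950_c0_g3 took 24.6%.

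DN103609_c1 departed from these, since the erect-only unigene was the larger part. DN103609_c1_g1 had 2946, 2361 and 1329 counts in the prostrate and 3283, 3083 and 2605 in the erect replicates (edgeR log2 fold change 0.12 ± 0.308 SE, adjusted p = 0.843). DN103609_c1_g2 held 76.3% of the 37823 erect counts of the component and none of its 6636 prostrate counts. Among the 26 components whose other unigenes had at least 100 prostrate counts in any of them, the erect-only part was between 0.829 and 94.5% of the erect counts, with a median of 7.85%, and it exceeded 50% in 2, DN103609_c1 and DN102950_c0.

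The companion called higher in the prostrate shoots was DN99014_c0_g3. It had 2028, 2056 and 1102 counts in the prostrate and 307, 255 and 564 in the erect replicates (edgeR log2 fold change -2.51 ± 0.414 SE, adjusted p = 0.0072). The erect-only DN99014_c0_g1 of the same component had 74, 62 and 31 counts in the erect replicates. Values of DN99014_c0_g3 did not overlap between the types of shoots. For DN99014_c0_g1 the separation and the direction were set by the rule. DN99014_c0_g2, of the same component, had 50, 17 and 71 prostrate and 78, 155 and 104 erect counts (edgeR adjusted p = 0.223, not called).

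Whether all other unigenes of a component lacked prostrate counts was counted over those with at least 20 counts in either type of shoot. At least 1 such unigene, or a further erect-only unigene, was present in 48 components. The others were all without prostrate counts in 8 of these 48, and in the other 40 at least 1 was detected in the prostrate shoots. In 4 of the 8, the others were erect-only themselves and so without prostrate counts by the rule. Of the 66 unigenes counted here that were not erect-only themselves, 8 had no prostrate count, 16 had between 1 and 3, and 42 had more.

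A member and its companion could also be compared in their order among the erect libraries. There were 19 pairs in which the companion had at least 20 counts in each erect library and was called higher in the erect shoots, and in 14 of them the same erect library was the highest for both. Among 32 pairs with a companion that passed neither direction, this was so in 8. Replicate 2 was the highest library for 48.6% of all erect-only unigenes, so a shared peak there is not particular to pairs. The pairs share libraries and possibly reads, and some unigenes enter more than 1 pair, so these counts are given without a test.

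No member was among the 18 unigenes that the paper names by identifier, and none of these shared a component with a member. The named unigene with the fewest prostrate counts was DN97881_c0_g2, close to *AGL67*, which encodes a MADS-box transcription factor in *Arabidopsis*. It had 2, 0 and 0 counts in the prostrate and 363, 333 and 259 in the erect replicates, and was outside the rule through the 2 counts of prostrate replicate 1. The paper also measured this unigene by RT-qPCR, where the difference between the types of shoots was not significant. The paper names the small RT-qPCR fold change as a possible reason, whereas the counts here differed widely. The *SPL* and *AP2*-like unigenes among the 18 were all detected in the prostrate shoots. The most abundant of them, DN103335_c1_g1, an *SPL* of the miR156 clade, had 8447, 7309 and 6250 counts there.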

How the data were processed

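Reads of 6 libraries were assembled with Trinity by the authors, and a unigene is the longest transcript of an assembled gene. The authors deposited estimated counts for every unigene in each library, without scaling to library size or length and without pooling. Trimmomatic 0.36 and HISAT2 2.1.0 are listed in the submitters' processing notes, with no role stated, and which program did the counting is not stated there. All 6 columns were used. The members and lists were chosen with earlier results of these data known.

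Estimated counts were rounded. Fits across unigenes used R 4.3.3 and edgeR 4.0.16 (glmQLFit and glmQLFTest, TMM, filterByExpr at a count of 10 and a total of 15), with shoot type as the sole factor and Benjamini-Hochberg adjustment. Calls needed adjusted p below 0.05 and a log2 fold change beyond 1 in size. Standard errors were derived from the F statistic. Intervals for unigenes with 1 to 3 prostrate counts are exact Clopper-Pearson intervals. DESeq2 1.42.0 and limma-voom (limma 3.58.1) were alternatives. The fits were tested on simulated data. Depth was between 15679144 and 20243960 counts per library.

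Named unigenes were the 10 most abundant members and the 5 with the lowest and the 5 with the highest coefficient of variation. Those at the limits of the rule were named too (3 inside, 3 outside by erect count, 5 outside by prostrate count). So were the members of the 5 components with most members (ties by identifier) and the 5 companions most abundant in the prostrate shoots. Any unigene the paper names that is a member or companion was also to be named (0 were). Others were chosen after their values were seen.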

Additional observations from a re-analysis of the deposited data

How the results depend on the processing

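The number of erect-only unigenes followed the limits chosen. It was 164, 53 and 30 with a minimum of 10, 50 and 100 counts in each erect library, 213 with up to 3 prostrate counts allowed in all, and 53 when components were summed, and it was between 119 and 140 with a library left out. The number of prostrate-only unigenes was 28 with a minimum of 10, 0 with 50 and 0 with 100, 6 and 8 with up to 1 and up to 3 erect counts allowed, and between 6 and 28 with a library left out. The erect-only share of erect counts was 0.250% without DN101504_c1_g1, and between 0.288 and 0.328% with an erect library left out. The median lower bound of the fold was 19.02 with 3 counts in each prostrate library as the floor. It was between 36.8 and 39.7 with a prostrate library left out, since fewer prostrate libraries raise the floor. With an erect library left out it was between 51.9 and 63.7. The median coefficient of variation was 0.298 with at least 100 counts in each erect library and between 0.218 and 0.243 with an erect library left out. With a mean count of at least 50 as the filter, 40 erect-only unigenes and 14 companions higher in the erect shoots were called, because fewer unigenes were tested. Over the other settings between 21 and 29 companions were called higher in the erect shoots. DESeq2 called 2 companions higher in the prostrate shoots, as did edgeR without prostrate replicate 3, the second being DN102323_c0_g1, and the number was 1 or 2 in fits that lacked a library. Deviations from the mean of each type of shoot gave Pearson's r across unigenes of -0.30, -0.07 and -0.07 for same-numbered libraries. Other pairings gave between -0.15 and 0.25. Such deviations constrain each other, so these values do not show whether same-numbered samples were paired. The labels give them only a shared number. With the replicate number as a block, edgeR called 99 erect-only unigenes, 21 companions higher in the erect shoots and 1 higher in the prostrate shoots. Unigenes near 20 counts limit what can be said of single members at this depth.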

Other observations

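Whole-number estimates were more frequent among the erect-only unigenes than among others. In 42 of the 105 (40.0%) the estimated counts were whole numbers in all 3 erect libraries, against 15.7% of the other 17343 unigenes with at least 20 counts in each erect library. Rare unigenes had whole numbers more often in general. Between 10 and 100 CPM the shares were 31.6% of 19 erect-only unigenes and 7.56% of 7569 others, and between 5 and 10 CPM they were 21.4% of 14 and 20.4% of 2326. A further 113 unigenes without prostrate counts had at least 60 counts over the erect libraries but fewer than 20 in at least 1 of them, and were not members.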
